A study of Homo sapiens with 9 samples.

Results

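The comparison described here sets the 3 arrays titled knockdown1 against the 3 control arrays of a study of HepG2 cells, so it uses 6 of the 9 arrays in the series. HepG2, grown from a human hepatocellular carcinoma, still carries out much of the work of hepatocytes. In the knockdown arrays, small interfering RNAs targeted HNF4alpha and HNF4gamma together. The series holds a further group of 3 arrays, knockdown2, aimed at the same pair of genes. It was left out of the comparison with control and used only to show where knockdown1 differs. The labels leave unsaid what sets knockdown1 apart from knockdown2, what the control cells received, or how long the cells were kept before RNA was taken. Nothing in them says that a group's arrays stem from separate cultures, and the p-values therefore reflect only the spread among these arrays, which may be technical.

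HNF4alpha and HNF4gamma are nuclear receptors that bind DNA at direct repeats in promoters and enhancers. HNF4alpha is known as a main activator of hepatocyte genes, among them genes of lipid and lipoprotein metabolism, bile acid synthesis, drug metabolism, glucose production and blood clotting. It is also known to restrain proliferation in liver. HNF4gamma is a close relative that is most abundant in intestine and kidney.

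The arrays carry short oligonucleotide probes for 54675 probe sets. Each deposited value is a linear signal, a relative brightness with no unit and no read count behind it. The median signal per array ran from 12.3 to 15.7, and arrays of a group correlated at 0.976 to 0.982 across the tested genes, against 0.929 to 0.935 between a knockdown1 and a control array. Since genes do not act as replicates, the correlations serve as a description. The 5′ probe set for actin gave 4737.0 to 5403.5 in knockdown1 and 4552.4 to 5986.8 in control, and these ranges overlap. A fold change is a difference of log2(signal + 1.43) between group means, a scale that understates the change of dim genes. A gene was called when its limma adjusted p was under 0.05.

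All 12 markers of HepG2 had a mean signal above 50. Of 12 such genes, 5 were called lower, or 41.7% against 20.1% of all tested genes, 6 were not called (among them AFP, ALB, SERPINA1 and AHSG), and TFRC was called higher. The call of TFRC (0.17) was lost under scaling to a common median (0.08), with no filter, without the variance trend and in 5 of the 6 fits that left out an array. AFP, which encodes alpha-fetoprotein, gave 6200.5, 6216.3 and 6883 in knockdown1 and 6588.7, 7064.2 and 6487.3 in control, and the groups overlap. The summed signal of the 12 genes was 44179.5 to 47024.0 in knockdown1 and 50506.9 to 51650.1 in control, and these ranges do not overlap. Most of that gap came from TF, APOA1 and APOH. TF, for example, gave 2547.3 to 2933.7 in knockdown1 and 4585.9 to 5185.1 in control. Markers of other cell types were mostly dim. The mean over the 6 arrays was under 50 for 10 of 12 stromal, 10 of 12 endothelial and 11 of 12 immune markers. VWF, CDH5 and PTPRC, which define endothelial and blood cells, stayed at or below 11.2 in every array. Of 5 tested endothelial markers 2 were called higher, LYVE1 (1.18) and PECAM1 (0.57), or 40% against 23.4% of all tested genes. Further probe sets of PECAM1 were at -0.27, -0.69 and -0.97 without passing the threshold. Of 8 tested stromal markers ACTA2 was called higher (1.14). Of 5 tested immune markers CD14 was called lower (-2.74), from dim control signals of 31.2, 23.9 and 14.6. The stromal sum was 960.9 to 1107 in knockdown1 and 525.7 to 657.5 in control, and without ACTA2 it was 197.6 to 233.6 and 152.4 to 241.0. The endothelial sum was 310.4 to 388.3 in knockdown1 and 210.2 to 259.1 in control, and without LYVE1 it was 139.1 to 167.1 and 131.5 to 172.2. The immune sum, most of it from LYZ, was 2966.2 to 3390.2 in knockdown1 and 2974 to 3643.4 in control. In RNA from a whole culture, fewer cells of a kind and less RNA per cell cannot be told apart.

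HNF4G, which encodes HNF4gamma, was lower in knockdown1. Its brighter probe set gave 15.3, 26.2 and 16.7 in knockdown1 and 44.2, 53 and 39.2 in control. All 3 knockdown1 arrays lay below the control arrays, and the log2 fold change was -1.20 (SE 0.27, limma adjusted p = 0.00357). A dimmer probe set gave 13.5, 4.8 and 1.9 against 36.7, 31.4 and 18.6, a log2 fold change of -2.11 (SE 0.58, adjusted p = 0.0138 over all probe sets kept). Both probe sets were dim, which leaves the size of the fall imprecise. HNF4A itself was not analysed here.

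The difference between knockdown1 and control was broad. Of 12483 tested genes, 5435 were called, or 43.5%, with 2925 higher (23.4%) and 2510 lower (20.1%). Large falls were more frequent than large rises. Called genes that differed at least 2-fold numbered 594 higher (4.76%) and 846 lower (6.78%), and at least 4-fold 61 higher (0.489%) and 193 lower (1.55%). The median log2 fold change of all tested genes was 0.07; the lowest and highest twentieths of genes began at -1.21 and 1.04. The balance of calls depends on the scaling of the arrays. Of the called genes 53.8% were higher, and with each array scaled to a common median 1678 genes were called higher and 2328 lower, or 41.9% higher. That scaling moved the median of all genes to -0.01. In 53% of tested genes the 3 knockdown1 arrays did not overlap the 3 control arrays, lying above them in 28.9% and below them in 24.1%.

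**Figure D1:**
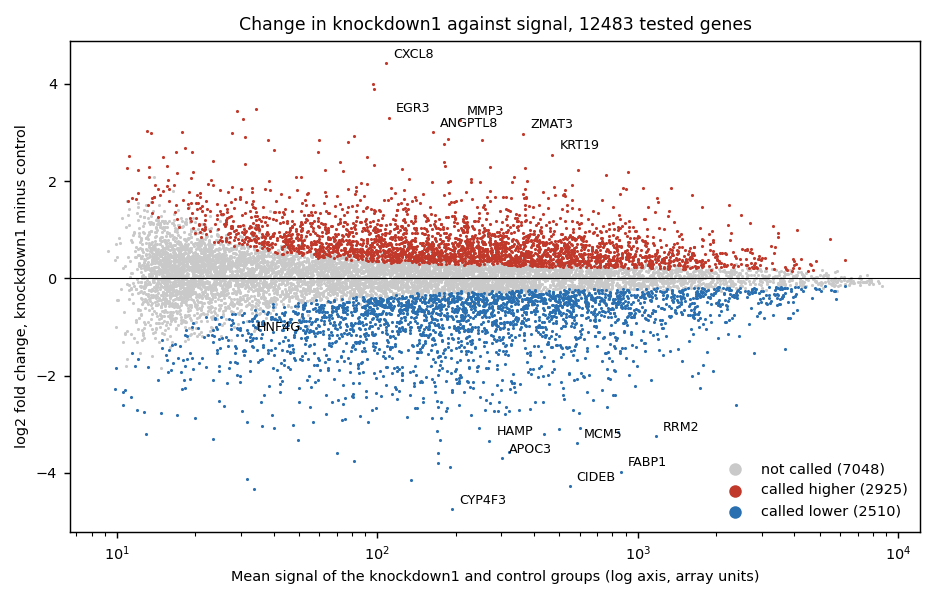
Log2 fold change of knockdown1 minus control (vertical axis) against the mean signal of both groups (horizontal log axis) for the 12483 tested genes, 1 point per gene. Blue points are the 2510 genes called lower and red points the 2925 called higher, and values run from -4.75 for CYP4F3 to 4.43 for CXCL8.

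Among called genes with a mean signal of at least 100 in the brighter group, the 15 largest falls joined genes of hepatocyte lipid metabolism and genes of cell division. CYP4F3, which encodes a fatty acid hydroxylase, gave 16.2, 10.7 and 11.4 in knockdown1 and 404.5, 346.9 and 376.1 in control. Its log2 fold change was -4.75 (SE 0.17, limma adjusted p = 8.05e-09). CIDEB, a lipid droplet protein of hepatocytes, gave 46.9, 47.3 and 64.7 against 1108, 1098.7 and 920.3 and fell by 4.27 on the log2 scale (SE 0.14, adjusted p = 4.48e-09). In both genes the arrays of each group lay far from those of the other. FABP1, the liver fatty acid binding protein, gave 73.4, 108.3 and 130.4 against 1444.1, 1604.7 and 1816.6, a change of -3.98 (SE 0.17, adjusted p = 1.71e-08). SOAT2, which esterifies cholesterol, gave 11.1, 30.1 and 30.0 against 326.6, 318.6 and 310.6 (-3.79, SE 0.29, adjusted p = 9.17e-07). In each of these genes every knockdown1 array lay below every control array.

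Cell cycle genes stood beside them. MCM5, a subunit of the helicase that opens DNA for replication, gave 102.6, 100.8 and 98.1 in knockdown1 and 1059.8, 1037.6 and 1104.2 in control (-3.39, SE 0.09, limma adjusted p = 1.43e-09). RRM2, the ribonucleotide reductase subunit that supplies deoxynucleotides, gave 209, 220.8 and 238 against 1957.1, 2272.5 and 2148.1 (-3.25, SE 0.09, adjusted p = 1.43e-09). KIFC1, a mitotic kinesin, gave 9.0, 11.9 and 8.1 against 116, 141.9 and 133.9 (-3.58, SE 0.22, adjusted p = 1.66e-07). The arrays of each of the 3 genes agreed closely within a group and did not overlap between groups. ZNF367, a zinc finger gene, fell by 3.75 (SE 0.46, adjusted p = 4.19e-05), from 114.7, 152.3 and 187.8 in control to 19.0, 2.9 and 14.1. The value of ZNF367 was -4.01 with no pseudocount and -2.69 with one set at the median signal.

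The other 7 of the 15 largest falls were CYP4F12 (-4.14), SLC16A10, a transporter of aromatic amino acids (-3.89), APOC3, an apolipoprotein that slows triglyceride clearance (-3.70), SULT2A1, which sulfates steroids and bile acids (-3.59), ANKRD46 (-3.56), HAMP, the iron hormone hepcidin (-3.34), and SLC6A4, the serotonin transporter (-3.33). HAMP varied most between control arrays, at 753.8, 390.5 and 336.1, and its knockdown1 arrays gave 55.2, 36.6 and 43.6. The CYP4F genes are close relatives, and signal from one may reach the probe sets of another.

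The 15 largest rises by the same rule were of varied kinds, among them secreted signals, a matrix enzyme and intermediate filaments. CXCL8, which encodes the neutrophil chemokine interleukin-8, gave 203.6, 203 and 214.1 in knockdown1 and 9.7, 10 and 5.7 in control. Its log2 fold change was 4.43 (SE 0.22, limma adjusted p = 3.91e-08), and 3.29 with the pseudocount set at the median signal. MMP3, a matrix metalloproteinase, gave 292, 393.3 and 444.7 against 28.7, 47.1 and 39.8 (3.25, SE 0.19, adjusted p = 1.42e-07). EGR3, an early growth response factor, gave 168.9, 224.3 and 214.7 against 20.5, 16.1 and 21.1 (3.30, SE 0.17, adjusted p = 6.13e-08). ZMAT3, a known p53 target that encodes an RNA-binding protein, gave 674.9, 610.8 and 656.7 against 76.5, 73.1 and 95.1 (2.97, SE 0.12, adjusted p = 1.27e-08).

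KRT19, a keratin of bile duct cells and hepatic progenitors, gave 684.9, 856.1 and 873.6 against 131.2, 128 and 150 (2.54, SE 0.12, adjusted p = 2.26e-08). NES, which encodes nestin, rose by 2.77 (SE 0.17, adjusted p = 1.60e-07), and COL5A2, a fibrillar collagen chain, by 2.60 (SE 0.20, adjusted p = 1.09e-06). ANGPTL8, a hepatokine of triglyceride metabolism, gave 413.3, 207.8 and 257 against 35.4, 28.1 and 38.5 (3.00, SE 0.22, adjusted p = 7.17e-07). The remaining large rises were SYTL2 (3.99), HECW2-AS1 (3.88), PAQR5 (2.93), OPN3 (2.86), KRTAP3-1 (2.85), SEMA3C (2.84) and LINC00326 (2.80). In all 30 genes the knockdown1 and control arrays did not overlap, a condition of their choice. HECW2-AS1 is an antisense gene, and the source of its signal was not checked here.

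**Figure D2:**
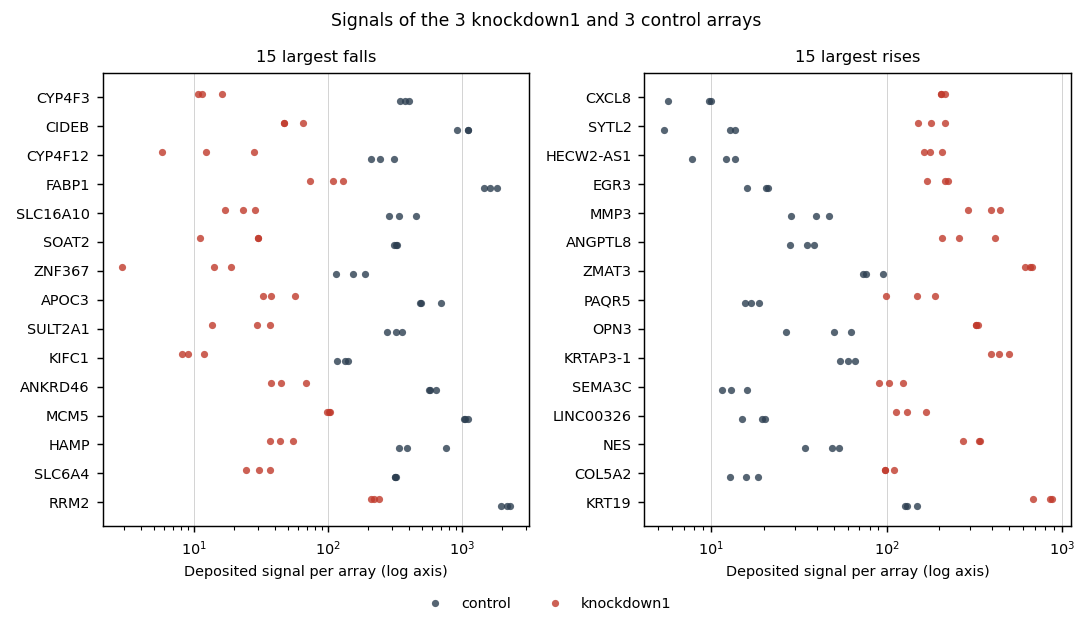
Deposited signal of each knockdown1 array (red) and each control array (dark) on a log axis, for the 15 largest falls (left) and the 15 largest rises (right) among called genes with a mean of at least 100 in the brighter group. Each point is 1 array, and the 3 points of one group lie apart from the 3 points of the other in every gene shown, as the choice required.

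Genes of lipoprotein assembly and lipid storage were mostly lower, with a few clear exceptions. In the list of apolipoproteins and lipoprotein assembly, 11 of 19 tested genes fell and 2 rose. These are 57.9% and 10.5%, against 20.1% called lower and 23.4% called higher over all tested genes. Shares in brackets after the list counts below stand against these. The median log2 fold change was -0.49 against 0.07 over all tested genes. MTTP, which loads lipid onto nascent lipoproteins, gave 77.0, 93.3 and 108.6 in knockdown1 and 282.4, 302 and 290.9 in control (-1.65, SE 0.13, limma adjusted p = 1.34e-06). APOA1, the main protein of high-density lipoprotein, fell by 0.72 (SE 0.08, adjusted p = 1.43e-05). APOB, the structural protein of very low-density lipoprotein, was at -0.14 (SE 0.06, adjusted p = 0.0736) and was not called, nor were APOA2, APOC1 and APOC2. The genes that rose were ANGPTL8 and CETP, the cholesteryl ester transfer protein (0.93, SE 0.27, adjusted p = 0.0158), the call of CETP being lost without knockdown1 replicate 3 (0.90).

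In the list of triglyceride and sterol ester storage, 10 of 19 genes fell and 4 rose (52.6% and 21.1%, median -0.38). CIDEC, a droplet fusion protein, gave 30.2, 34.8 and 34.8 against 281.1, 314.8 and 319.8 (-3.14, SE 0.13, adjusted p = 1.37e-08). DGAT2, which makes triglyceride, gave 148, 149.4 and 145.5 against 440.5, 443.2 and 426.3 (-1.56, SE 0.09, adjusted p = 1.43e-07). The perilipins that coat droplets went the other way, with PLIN3 at 1.12 (SE 0.09, adjusted p = 1.53e-06) and PLIN2 at 0.64 (SE 0.09, adjusted p = 1.30e-04). HILPDA and FITM2 also rose, by 0.70 and 0.35. The call of PLIN2 was lost with the mean of its probe sets (0.41, adjusted p = 0.0819), and that of FITM2 with that mean (0.25), under scaling to a common median (0.27), without the variance trend, and without knockdown1 replicate 3 (0.31) or control replicate 2 (0.29).

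In the list of fatty acid uptake, oxidation and ketogenesis, 13 of 26 genes fell and 6 rose (50% and 23.1%, median -0.38). Besides FABP1, BDH1, which interconverts the ketone bodies, fell by 1.84 (SE 0.22) and CPT1A, which admits fatty acids to mitochondria, by 1.01 (SE 0.22), while ACSL1, an acyl-CoA synthetase, rose by 1.07 (SE 0.12). In fatty acid synthesis 5 of 13 genes fell and 0 rose (38.5% and 0%, median -0.34). ELOVL2, an elongase of polyunsaturated fatty acids, fell by 1.88 and ACSS2, which activates acetate, by 1.70, whereas FASN, the fatty acid synthase, was at -0.25 (adjusted p = 0.0535) and ACACA at 0.05.

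In cholesterol synthesis and uptake 12 of 19 genes fell and 0 rose (63.2% and 0%, median -0.43). ACAT2, a cytosolic thiolase, gave 723.7, 687.9 and 688.7 against 2106, 1955.1 and 1850.7 (-1.49, SE 0.08, adjusted p = 4.91e-08). IDI1 fell by 0.85 with its brightest probe set, and a further bright one was at -0.88 (adjusted p = 3.84e-06), whereas a dim one, with means of 95.4 and 54.8, rose by 0.77 (adjusted p = 0.00269).

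Genes of bile acids, drug metabolism and conjugation were lower in a majority of called members. In bile acid synthesis and transport 13 of 20 genes fell and 1 rose (65% and 5%, median -0.78). SLCO2B1, an organic anion uptake carrier, gave 27.8, 40.6 and 46.8 in knockdown1 and 253.4, 321.8 and 279.8 in control (-2.87, SE 0.18, limma adjusted p = 2.16e-07). CYP27A1, the sterol 27-hydroxylase, gave 409.4, 344.2 and 406.5 against 1161.9, 1169.9 and 1017.5 (-1.53, SE 0.10, adjusted p = 2.27e-07). ACOX2, which shortens the side chain, fell by 2.12 and ABCG8, which exports sterols, was at -1.74. CYP39A1, an oxysterol hydroxylase, rose by 1.12 (SE 0.12, adjusted p = 1.24e-05). BAAT, which conjugates bile acids, was at 1.09 with an SE of 0.55 and was not called (adjusted p = 0.131).

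In phase I drug and fatty acid hydroxylation 14 of 26 genes fell and 2 rose (53.8% and 7.7%, median -0.53). CYP19A1, the aromatase, gave 18.9, 11.4 and 17.4 against 150.5, 145.5 and 94.5 (-2.92, SE 0.24, adjusted p = 1.81e-06). CYP4F2 fell by 2.52 and EPHX2, a soluble epoxide hydrolase, by 2.15. CYP3A4, the main drug-metabolising P450 of adult liver, was dim in both groups (4.0, 26.7 and 25.8 against 26.3, 25.4 and 30.7) and was not called. CYP1A2 rose by 0.45 (SE 0.15, adjusted p = 0.0268), a call lost under scaling to a common median (0.37, adjusted p = 0.200), with no filter, and without knockdown1 replicate 2 (0.42) or 3 (0.46) or control replicate 2 or 3 (both 0.44). In phase II conjugation 9 of 22 genes fell and 4 rose (40.9% and 18.2%, median -0.21). SULT1C2, a sulfotransferase, fell by 3.03 (SE 0.26, adjusted p = 2.69e-06), and the glutathione transferases GSTM4, GSTM1 and GSTM2 fell by 1.43, 1.15 and 1.05, while GSTM3 rose by 0.75 (SE 0.12, adjusted p = 3.52e-04). The sequences of these transferases are so alike that their probe sets may share signal.

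Most tested genes of membrane carriers and of apical structures were called lower. Among hepatic membrane transporters 20 of 34 genes fell and 5 rose (58.8% and 14.7%, median -0.89). SLC13A5, the citrate carrier, gave 45.9, 48.0 and 59.3 in knockdown1 and 493.1, 433.6 and 399.4 in control (-3.08, SE 0.13, limma adjusted p = 1.62e-08), and SLC38A3, a glutamine carrier, fell by 2.59 (SE 0.19, adjusted p = 7.19e-07). SLC40A1, the iron exporter ferroportin, rose from 743, 616.4 and 822.8 to 1375.4, 1230.9 and 1307.7 (0.85, SE 0.10, adjusted p = 3.95e-05). A dim further probe set of SLC40A1, with means of 49.8 and 48.5, was at 0.01 (adjusted p = 0.965 over all probe sets kept). HAMP, whose product acts on ferroportin protein, is among the largest falls above, and a link between these genes was not tested.

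Of 19 tested genes of the microvillus and apical membrane, 14 fell and 1 rose (73.7% and 5.3%, median -1.30). VIL1, which bundles actin in microvilli, gave 290.7, 273 and 306.1 against 808.4, 711.4 and 796.1 (-1.41, SE 0.09, adjusted p = 2.80e-07). NHERF1, a scaffold of apical transporters, gave 373.9, 395.4 and 357.4 against 1348.4, 1101.5 and 1222.9 (-1.70, SE 0.09, adjusted p = 7.97e-08). PDZK1, a further scaffold, fell by 2.06, and ANKS4B, a microvillus protein, was called lower at -2.95 from signals of 54.1 to 57.5. EZR, which encodes ezrin, rose by 0.42 (adjusted p = 6.60e-04), a call lost when arrays were scaled to a common median (0.34, adjusted p = 0.159).

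Of 26 junction and polarity genes 7 fell and 5 rose, or 26.9% and 19.2%, near the 20.1% and 23.4% of all tested genes. CDH1, which encodes E-cadherin, gave 42.9, 21.8 and 20.7 against 149.9, 145.2 and 161.6 (-2.44, SE 0.24, adjusted p = 6.60e-06). CLDN4, a claudin of tight junctions, fell by 2.12 (SE 0.32). CDH2, which encodes N-cadherin, rose by 0.29 (SE 0.09, adjusted p = 0.0221), a call lost under scaling to a common median (0.20), without the variance trend and without knockdown1 replicate 1 (0.26) or 3 (0.26) or control replicate 1 (0.24) or 2 (0.28). PARD3, a polarity scaffold, rose by 0.91 (SE 0.10, adjusted p = 2.09e-05).

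In gluconeogenesis and the handling of glucose and fructose 13 of 18 genes fell and 1 rose (72.2% and 5.6%, median -1.12). PPARGC1A, a coactivator of the fasting response, gave 19.3, 29.9 and 26.5 in knockdown1 and 141, 131.6 and 134.8 in control (-2.38, SE 0.18, limma adjusted p = 9.17e-07). SLC37A4, the glucose-6-phosphate carrier, was called lower at -1.50, as were KHK, the fructose kinase, at -1.46 and PYGL, the liver glycogen phosphorylase, at -1.28. FBP1, a gluconeogenic phosphatase, fell by 1.57 (SE 0.52, adjusted p = 0.0281) from dim signals. The call of FBP1 was lost without knockdown1 replicate 1 (-1.27) or 3 (-1.49) and without control replicate 1 (-1.51) or 2 (-1.35). IGFBP1, a secreted IGF-binding protein, rose by 0.74 (SE 0.16, adjusted p = 0.00292), and G6PC1, which encodes glucose-6-phosphatase, was at 1.11 (SE 0.54, adjusted p = 0.121) and was not called.

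In the urea cycle and amino acid metabolism 15 of 35 genes fell and 3 rose (42.9% and 8.6%), and 17 were not called (median -0.46). MAT1A, which makes S-adenosylmethionine in liver, gave 441.3, 446.1 and 524.6 against 1219.3, 1190.5 and 1383.3 (-1.42, SE 0.10, adjusted p = 3.36e-07). HAAO, of tryptophan breakdown, fell by 1.85, BHMT, which remethylates homocysteine, by 1.65, and ASS1, of the urea cycle, by 1.23. CPS1, which starts the urea cycle, was at 0.16 (adjusted p = 0.247). CTH and CBS, of transsulfuration, rose by 0.68 and 0.63.

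In glycolysis and the hypoxia response 10 of 26 genes fell and 4 rose (38.5% and 15.4%, median -0.15). BNIP3, a mitophagy receptor induced by hypoxia, fell by 1.19 (SE 0.10, adjusted p = 2.08e-06) and NDRG1 rose by 0.74 (SE 0.13, adjusted p = 6.51e-04). Among nuclear genes of oxidative phosphorylation 12 of 39 fell and 1 rose (30.8% and 2.6%, median -0.12). The largest of these falls was that of CYCS, which encodes cytochrome c, at -0.89 (SE 0.08, adjusted p = 2.36e-06).

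Secreted plasma proteins changed unevenly. Of 28 plasma carrier and acute-phase genes 12 fell and 1 rose (42.9% and 3.6%, median -0.10). HP, which encodes haptoglobin, gave 170.8, 192.7 and 229.7 in knockdown1 and 1297.2, 754.6 and 1412.8 in control (-2.50, SE 0.20, limma adjusted p = 1.25e-06), although its probe set may pick up the related HPR. LEAP2, an antimicrobial and ghrelin-receptor peptide of liver, gave 19.4, 13.8 and 15.3 against 78.0, 103.8 and 69.0 (-2.26, SE 0.23, adjusted p = 1.01e-05). ALB, the albumin gene, was at 0.13 (SE 0.08, adjusted p = 0.214), and HPX, which encodes hemopexin, rose by 0.98 (SE 0.14, adjusted p = 1.09e-04).

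Of 24 coagulation and fibrinolysis genes 9 fell and 3 rose (37.5% and 12.5%, median -0.30). SERPINC1, which encodes antithrombin, gave 227.7, 195.3 and 245.4 against 953, 822.3 and 837.1 (-1.96, SE 0.11, adjusted p = 7.68e-08). PROZ, F10 and F7, which are vitamin K-dependent factors, fell by 1.53, 1.33 and 1.10. TFPI2, a protease inhibitor, rose by 3.27 (SE 0.58, adjusted p = 7.12e-04) from control signals of 1.0, 3.9 and 12.1, and its value with the pseudocount set at the median was 1.79. Of 20 complement genes 6 fell and 3 rose, or 30% and 15%, against 20.1% and 23.4% of all tested genes (median -0.04). All 3 chains of C8 in the list, C8A, C8B and C8G, fell (-1.998, -1.48 and -1.10), and MBL2, the mannose-binding lectin, rose by 1.04 (SE 0.25, adjusted p = 0.00478).

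Among hepatocyte transcription factors, 6 of 16 tested genes fell and 4 rose, or 37.5% and 25% against 20.1% and 23.4% of all tested genes. CEBPA, a factor of hepatocyte differentiation, gave 292.6, 317.7 and 374.3 in knockdown1 and 728.2, 533.3 and 602.6 in control (-0.91, SE 0.13, limma adjusted p = 1.12e-04). KLF15 fell by 1.23 and GATA4 by 0.79. PROX1, a factor of the early liver bud, gave 177.1, 175.2 and 180.8 against 73.4, 91.0 and 64.3 (1.22, SE 0.14, adjusted p = 2.49e-05), and FOXA3 rose by 1.12 (SE 0.10, adjusted p = 3.02e-06). FOXA1 and FOXA2, its close relatives, were at -0.17 and -0.04 and were not called. CREB3L3, of the fasting and lipid response, fell by 1.68 (adjusted p = 0.0281) from signals of 18.6, 25.4 and 38.2, a call lost without the variance trend (adjusted p = 0.0562), without knockdown1 replicate 3 (-1.07) or without control replicate 2 (-1.70) or 3 (-1.42).

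Other nuclear receptors were more often lower, with 10 of 21 tested genes called lower and 4 higher (47.6% and 19%, median -0.32). RORA fell by 1.08 (SE 0.18, adjusted p = 3.88e-04), RXRA, the common partner receptor, by 0.72 (SE 0.15, adjusted p = 0.00183), and NR5A2 by 0.66. ESRRA, a receptor of mitochondrial genes, rose by 0.71 (SE 0.11, adjusted p = 3.65e-04), a call lost with the mean of its probe sets (0.37, adjusted p = 0.0796). NR0B2, the corepressor SHP, was at -0.14 (adjusted p = 0.286). PPARG rose by 0.73 (adjusted p = 0.0327), a call lost in 7 alternatives with values of 0.59 to 0.79.

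**Figure D3:**
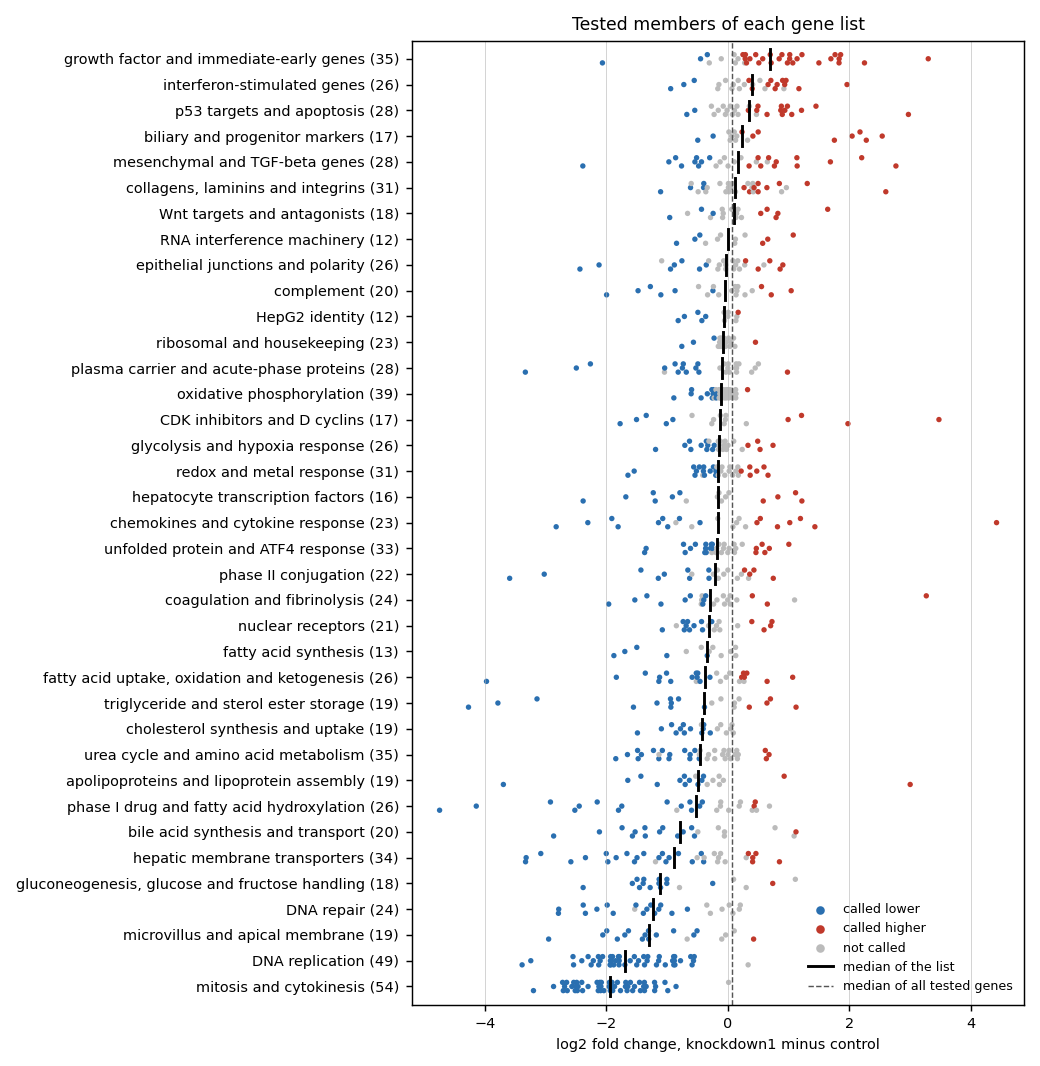
Log2 fold change of knockdown1 minus control (horizontal axis) for the tested members of 37 gene lists, ordered by their median, with the number of tested members in brackets. Points are genes, coloured by call, the black bar is the list's median and the dashed line the median of all tested genes (0.07). DNA replication and mitosis stand at the bottom with medians of -1.70 and -1.94, and growth factor and immediate-early genes at the top with 0.70.

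The most uniform change was in genes of the cell cycle. Of 49 tested DNA replication genes 48 fell and 0 rose, or 98% called lower against 20.1% of all tested genes, and the median was -1.70. Of 54 genes of mitosis and cytokinesis 53 fell and 0 rose (98.1% and 0%, median -1.94). Of 24 DNA repair genes 16 fell and 0 rose (66.7% and 0%, median -1.24). Replication genes copy DNA in S phase, and mitotic genes separate the chromosomes, and repair genes mend breaks and stalled forks.

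The falls covered the steps of replication in turn. CDC6 and CDT1, which load the helicase at origins, were called lower at -2.54 and -2.13. Among the helicase subunits MCM2 to MCM7, the smallest fall was that of MCM3 (-1.32) and the largest that of MCM5. E2F1, a transcription factor that drives entry into S phase, gave 13.9, 37.4 and 12.3 in knockdown1 and 90.9, 99.7 and 128.9 in control (-2.41, SE 0.34, limma adjusted p = 1.21e-04). CCNE2, an E-type cyclin, gave 16.8, 20.2 and 17.8 against 90.6, 137.1 and 118.3 (-2.55, SE 0.20, adjusted p = 1.21e-06). PCNA, the sliding clamp of the polymerases, stayed bright, at 1434.1, 1519.2 and 1658.2 against 2852.5, 2792.2 and 2894.2 (-0.89, SE 0.07, adjusted p = 1.27e-06). The gene of this list that was not called was GINS4, at 0.33 (SE 0.38, adjusted p = 0.517).

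In mitosis, PRC1, which bundles the midzone of the spindle, gave 94.6, 86.0 and 73.3 against 820.9, 757.2 and 783.3 (-3.20, SE 0.11, adjusted p = 6.87e-09). CDK1, the kinase that starts mitosis, gave 268.8, 225.9 and 267.1 against 1440.1, 1319.3 and 1290.4 (-2.41, SE 0.10, adjusted p = 1.27e-08). CDCA8, of the chromosomal passenger complex, fell by 2.87, CDC25C, which activates CDK1, was at -2.71 and MKI67, a proliferation antigen, at -2.57. ECT2, a regulator of cytokinesis, was the exception, at 0.01 (SE 0.09, adjusted p = 0.923). In DNA repair, RAD51AP1 and EXO1, which act in recombination, both fell by 2.79 and BRCA1 by 1.99, whereas the checkpoint kinase gene ATR was at 0.08 and was not called.

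In the list of CDK inhibitors and D cyclins 4 of 17 genes rose and 5 fell, or 23.5% and 29.4% against 23.4% and 20.1% of all tested genes. CDKN1A, which encodes the inhibitor p21, gave 1461.8, 1535.7 and 1461.3 in knockdown1 and 606.8, 636.6 and 677.9 in control (1.21, SE 0.08, limma adjusted p = 2.08e-07). CDKN2B, which encodes p15, rose by 3.48 (SE 0.57, adjusted p = 3.69e-04) from control signals of 0.5, 8.1 and 8.9 to 59.8, 61.7 and 66.6, and its value with the pseudocount set at the median was 1.96. CCND2, a D-type cyclin, gave 233, 253.6 and 293.8 against 50.5, 81.9 and 65.2 (1.98, SE 0.17, adjusted p = 2.16e-06). CCND1, its relative, fell by 1.01 (SE 0.15, adjusted p = 1.45e-04), and CDK6, the kinase that both cyclins activate, gave 410.2, 465.5 and 456.2 against 1161.7, 1276.2 and 1350.4 (-1.50, SE 0.09, adjusted p = 1.33e-07). Of the 6 further probe sets of CDK6, 2 also passed the threshold (-1.46 and -1.33), and a dim one, at 0.44, had the opposite sign without passing it.

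Of 28 p53 targets and apoptosis genes 13 rose and 2 fell (46.4% and 7.1%), with a median of 0.35. After ZMAT3 and CDKN1A, PLK3, a stress kinase, rose by 1.45 (SE 0.16, adjusted p = 1.63e-05). POLH, a polymerase that bypasses damage, rose by 1.05, a call lost with the mean of its probe sets (0.44, adjusted p = 0.123). MDM2, whose product degrades p53, gave 390.7, 386.8 and 367 against 666.2, 515.8 and 660.9 (-0.68, SE 0.11, adjusted p = 3.28e-04), and of its 6 further probe sets 3 passed in the same direction (-1.05, -0.61 and -1.33) and 2 dim ones gave 0.03 and 0.65 without passing.

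The fall of cell cycle genes differed between the knockdowns. In the fit of all 9 arrays 39.5% of the tested genes differed between knockdown1 and knockdown2, with 2854 higher (22.9%) and 2078 lower (16.6%) in knockdown1. Scaling each array to a common median moved the median difference from 0.10 to -0.02 and the counts to 1389 higher and 2069 lower. Of the 49 replication genes 48 were lower in knockdown1 than in knockdown2 and 0 higher (median -1.32), of the 54 mitosis genes 52 and 0 (median -1.72), and of the 24 repair genes 15 and 0 (median -1.05). RRM2 gave 2018.3, 2293.7 and 2281.6 in knockdown2, overlapping its control arrays, against 209, 220.8 and 238 in knockdown1 (knockdown1 minus knockdown2 -3.29, SE 0.08, limma adjusted p = 1.68e-11). PRC1 gave 825.2, 717.5 and 767.3 in knockdown2 (-3.17, SE 0.10, adjusted p = 7.58e-11). ZNF367 showed the largest such difference, at -3.94 (SE 0.41, adjusted p = 4.57e-06). That rank depends on the pseudocount. With one set at the median signal ZNF367 was at -2.85, RRM2 at -3.22 and PRC1 at -2.99.

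**Figure D4:**
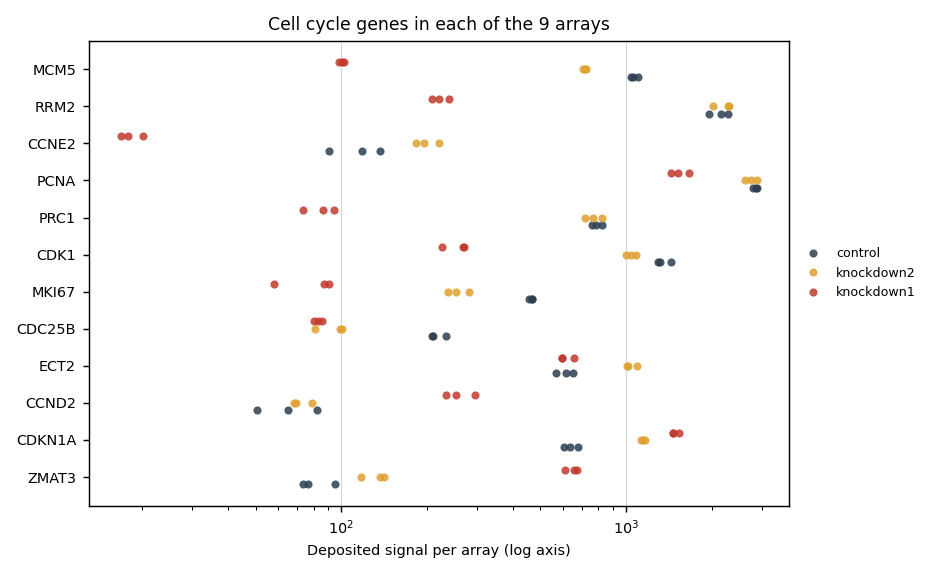
Deposited signal per array on a log axis for 12 cell cycle genes in knockdown1 (red), knockdown2 (yellow) and control (dark), 3 arrays each. For MCM5, RRM2, CCNE2 and PRC1 the knockdown1 arrays lie far below both other groups, CDC25B is low in both knockdowns, and CDKN1A is highest in knockdown1.

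Growth factor and immediate-early genes rose together. Of 35 tested members 26 rose, or 74.3% against 23.4% of all tested genes, and 3 fell, with a median of 0.70. EGR1, an early growth response factor, gave 1873.1, 1761 and 1209.4 in knockdown1 and 253.7, 434.7 and 752.5 in control (1.86, SE 0.30, limma adjusted p = 3.23e-04). Its control arrays differed by more than 2-fold among themselves and still lay below every knockdown1 array. EREG, a ligand of the EGF receptor, gave 218, 212.7 and 186.4 against 39.9, 53.8 and 34.4 (2.25, SE 0.17, adjusted p = 7.34e-07). MYC gave 1731.4, 1661.9 and 1729.8 against 1075.2, 1080.6 and 1000.6 (0.70, SE 0.07, adjusted p = 8.30e-06). FOS rose by 1.77 from control signals of 2.5, 11.4 and 12.4, a call lost without knockdown1 replicate 3 (1.62). EGFR rose by 0.51 with its brightest probe set, but the mean of its probe sets was at -0.022 (adjusted p = 0.910). ERBB3, a receptor of the same family, went the other way, at 317.1, 305 and 279.1 against 1304.3, 1265.3 and 1214.5 (-2.07, SE 0.08, adjusted p = 1.37e-08).

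Chemokine and cytokine response genes were mixed. Of 23 tested members 7 were higher and 9 lower, or 30.4% and 39.1% against 23.4% and 20.1% of all tested genes. IL6ST, the signalling subunit of the IL-6 receptor family, gave 886.7, 814.9 and 761.9 against 3192.2, 3006.2 and 3067 (-1.91, SE 0.08, adjusted p = 1.27e-08). STAT3, which transmits its signal, gave 858.5, 687.5 and 694.7 against 268.5, 260.1 and 294.7 (1.43, SE 0.11, adjusted p = 7.58e-07), and LIF, a ligand of that receptor family, rose by 1.20. Called lower were IL1RN, the IL-1 receptor antagonist (-2.83), the chemokine CCL20 (-2.31) and NFKBIA, an inhibitor and target of NF-kappaB (-1.07). CXCL8 rose and CCL20 fell. Both are known NF-kappaB targets, and the activity of NF-kappaB was not tested.

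Of 26 tested interferon-stimulated genes 11 rose against control, or 42.3% against 23.4% of all tested genes, 3 fell and 12 were not called (median 0.41). IFIT1, which binds foreign RNA, gave 110.6, 221.2 and 92.4 in knockdown1, 32.0, 31.6 and 34.3 in control, and 13.6, 16.4 and 13.3 in knockdown2. Against control it rose by 1.96 (SE 0.26, limma adjusted p = 8.49e-05), and by 1.59 without knockdown1 replicate 2. BST2, the membrane protein tetherin, rose by 1.17 (SE 0.13, adjusted p = 1.50e-05) and MX1 by 0.78 (SE 0.22, adjusted p = 0.0119). IFI27 rose by 0.96 (adjusted p = 0.00862). Without the variance trend the calls of MX1 (adjusted p = 0.0524) and IFI27 (adjusted p = 0.0513) were lost. IFI35 fell by 0.94 (SE 0.10, adjusted p = 1.34e-05). Against knockdown2, 15 of the 26 were higher in knockdown1, or 57.7% against 22.9% of all tested genes, and 0 lower (median 0.65). The mean of the list relative to control was 0.31, 0.59 and 0.30 in the knockdown1 arrays, with replicate 2 highest.

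**Figure D5:**
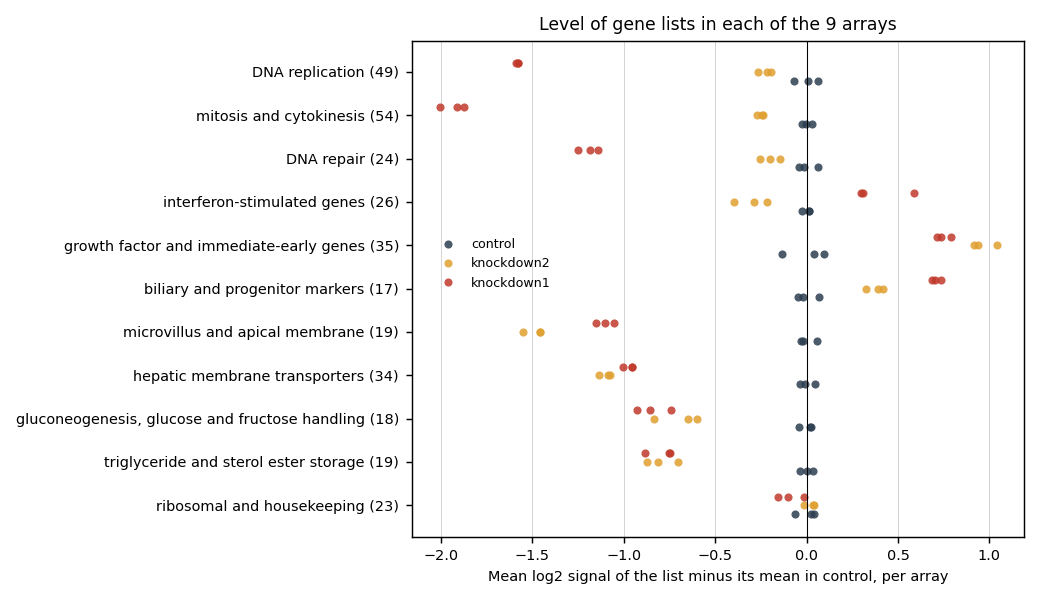
Mean log2 signal of 11 gene lists in each of the 9 arrays, minus the list's mean in the control arrays, with the number of genes in brackets. Points are arrays of knockdown1 (red), knockdown2 (yellow) and control (dark). DNA replication lies near -1.58 in all 3 knockdown1 arrays and between -0.27 and -0.20 in knockdown2, and triglyceride storage lies between -0.88 and -0.75 in knockdown1 and between -0.88 and -0.71 in knockdown2.

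Biliary and progenitor markers were higher in part. Of 17 tested genes 8 rose and 2 fell (47.1% and 11.8%, median 0.23). SOX4, a progenitor transcription factor, gave 1601.9, 1462.3 and 1452.4 in knockdown1 and 347.8, 339 and 308.6 in control (2.18, SE 0.08, limma adjusted p = 1.24e-08). SPP1, which encodes osteopontin, gave 508, 426 and 417.1 against 104, 70.1 and 103.8 (2.28, SE 0.15, adjusted p = 3.68e-07). KRT23 rose by 2.05 and CD24 by 1.76. SOX9 and KRT7, which mark bile duct cells, were at 0.15 and 0.11 and were not called, and PROM1 fell by 0.50 (SE 0.09, adjusted p = 6.39e-04).

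Mesenchymal and TGF-beta genes went both ways. The 28 tested members gave 11 higher and 9 lower, or 39.3% and 32.1% against 23.4% and 20.1% of all tested genes. TGFB1, the ligand, gave 716.6, 880 and 804.4 against 244.2, 287 and 213 (1.69, SE 0.12, adjusted p = 5.26e-07). THBS1, an activator of that ligand, rose by 2.21 and ACTA2, smooth muscle actin, by 1.14. LOX, which crosslinks collagen, gave 179.3, 161 and 152 against 971.7, 911.6 and 727.5 (-2.39, SE 0.12, adjusted p = 4.54e-08), and VIM, which encodes vimentin, was dim in both groups and not called. Of 31 collagen, laminin and integrin genes 9 rose and 4 fell, or 29% and 12.9%, against 23.4% and 20.1% of all tested genes. TIMP1, a metalloproteinase inhibitor, rose by 1.31 (SE 0.14, adjusted p = 1.53e-05), and NID1, a basement membrane protein, fell by 1.11 (SE 0.10, adjusted p = 2.48e-06). Of 18 Wnt targets and antagonists 5 rose and 3 fell, or 27.8% and 16.7%, near the 23.4% and 20.1% of all tested genes, with DKK1, a secreted antagonist, at 1.65 (SE 0.11, adjusted p = 4.50e-07) and AXIN2 at 0.65 (SE 0.11, adjusted p = 3.77e-04).

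Stress and housekeeping lists showed smaller medians. In the unfolded protein and ATF4 response 14 of 33 genes fell and 6 rose (42.4% and 18.2%, median -0.18). PHGDH, of serine synthesis, fell by 1.35, and TRIB3, a pseudokinase, rose by 1.01 (SE 0.11, limma adjusted p = 1.73e-05). In the redox and metal response 13 of 31 fell and 6 rose (41.9% and 19.4%, median -0.16). HMOX1, heme oxygenase, gave 361.6, 380.4 and 380.4 against 1128, 1224.1 and 1169.8 (-1.65, SE 0.08, adjusted p = 3.42e-08), and AKR1B10, an aldo-keto reductase, fell by 1.54. Of 12 genes of RNA interference 3 rose and 3 fell, or 25% each way, near the shares over all tested genes. DICER1, which cuts microRNA precursors, gave 252.6, 245.6 and 242.4 against 455.6, 426 and 452.8 (-0.85, SE 0.09, adjusted p = 1.28e-05), and TNRC6B, a silencing partner, rose by 1.08 (SE 0.14, adjusted p = 6.79e-05). Further probe sets of TNRC6B were at 0.16 to 0.94, and only the one at 0.69 passed the threshold.

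Of 23 ribosomal and housekeeping genes 3 fell and 1 rose, or 13% and 4.3%, against 20.1% and 23.4% of all tested genes (median -0.08). HPRT1 fell by 0.76 (SE 0.09, adjusted p = 2.42e-05) and GUSB by 0.57, and YWHAZ rose by 0.46, a call lost after scaling to a common median (0.37, adjusted p = 0.0728). ACTB was at -0.08, GAPDH at -0.08 and PPIA at -0.10, and none of these 3 was called.

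Some genes differed from knockdown2 in the direction of change as well as its size. The comparisons of both knockdowns with control share the control arrays, so the values are given side by side. ANGPTL8 was at 3.00 in knockdown1 and -1.73 in knockdown2, the widest gap between the knockdowns (4.74, SE 0.33, limma adjusted p = 8.43e-08). INHBE, an inhibin chain made in liver, gave 984.9, 638 and 632.3 in knockdown1, 196.5, 174.1 and 231 in control, and 158, 135 and 116.9 in knockdown2. CDK6 gave 2282.7, 2332.1 and 2258.2 in knockdown2, so control lay between the knockdowns. SPP1, by contrast, was at 0.20 in knockdown2 and not called there, and differed between the knockdowns by 2.08 (SE 0.17, adjusted p = 4.13e-07). Among hepatic membrane transporters 9 of 34 genes were higher and 7 lower in knockdown1 than in knockdown2, and 18 were not called. These shares, 26.5% and 20.6%, lie near the 22.9% and 16.6% of all tested genes. MTTP was higher in knockdown1 by 0.80 (SE 0.13, adjusted p = 3.10e-04), and DGAT2 lower, at -0.93 (SE 0.08, adjusted p = 7.88e-07). FABP1 gave 65.3, 133.1 and 119.4 in knockdown2, a difference of 0.00 from knockdown1 (SE 0.24, adjusted p = 0.997).

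Promoter sequence was set beside the calls, since genes of some lists, such as replication and mitosis, moved together. For 10114 of the 12483 tested genes a RefSeq promoter (GRCh38.p14) was given, 250 bases before to 50 after the start, and short motifs were searched on both strands of the 250 bases before the start. The letters were CAAAGTCCA or CAAAGGTCA for a part of an HNF4 repeat, GTTAATNAT for HNF1, TTTCGCGC or TTTGGCGC for E2F and TGANTCA for AP-1. An HNF4 match lay in 0.63% of all 27305 promoters and in 0.44% of those of tested genes. The share was 0.81% of genes called lower (17 of 2106), 0.04% of genes called higher (1 of 2425) and 0.48% of genes not called. An E2F match lay in 1% of all promoters and in 1.58% of those of tested genes. The share was 2.23% of genes called lower, 1.03% called higher and 8.89% of the replication and mitosis genes called lower (8 of 90). Over the whole window, which includes the 50 bases after the start, the last share was 17.78% (16 of 90), against 1.92% of tested genes. Nearly all tested replication and mitosis genes were called lower (48 of 49 and 53 of 54), so both shares describe the lists rather than the call. The same genes are also counted among all genes called lower. An AP-1 match lay in 6.6% of all promoters and in 3.93% of those of tested genes. The share was 3.13% of genes called lower and 4.49% called higher, and at a change of at least 4-fold 5.52% of genes called lower (8 of 145) and 12.5% of genes called higher (5 of 40). An HNF1 match lay in 0.68% of all promoters and in 0.43% of those of tested genes. It was as frequent in genes called lower (0.43%), called higher (0.41%) and not called (0.43%). At a change of at least 4-fold it lay in 0 of 145 genes called lower and 2 of 40 called higher. These shares are descriptions, a match is not a bound site, and most genes that changed have none in this window.

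The promoters that follow show such matches in genes with large changes, as the 200 bases before the start, 5′ to 3′ on the gene's strand, with the match in capitals. LEAP2 (chr5:132873468-132873667, plus strand) and DDC (chr7:50565406-50565605, minus strand) hold an HNF4 match. E2F1 (chr20:33686386-33686585, minus strand) and ZNF367 (chr9:96418371-96418570, minus strand) hold an E2F match, and CXCL8 (chr4:73740369-73740568, plus strand) an AP-1 match. AP-1 matches lay before genes that changed at least 4-fold either way (8 of 145 called lower, 5 of 40 called higher). CYP4F3, the largest fall, is among those called lower, and its promoter is not printed. In DDC and ZNF367 the match lies on the opposite strand, so the capitals show its reverse complement. Each promoter shown was chosen for its match after the values were seen. DDC encodes aromatic amino acid decarboxylase. It gave 210.5, 212 and 206.3 in knockdown1 and 1501.5, 1227.2 and 1231.8 in control (-2.64, SE 0.10, limma adjusted p = 8.25e-09).
LEAP2: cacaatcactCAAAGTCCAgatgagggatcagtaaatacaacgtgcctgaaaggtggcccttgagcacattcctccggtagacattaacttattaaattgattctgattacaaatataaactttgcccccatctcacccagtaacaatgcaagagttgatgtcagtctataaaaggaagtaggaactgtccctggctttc
DDC: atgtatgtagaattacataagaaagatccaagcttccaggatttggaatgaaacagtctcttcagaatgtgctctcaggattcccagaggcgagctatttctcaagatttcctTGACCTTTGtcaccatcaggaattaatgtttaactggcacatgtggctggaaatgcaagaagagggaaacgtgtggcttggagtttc
E2F1: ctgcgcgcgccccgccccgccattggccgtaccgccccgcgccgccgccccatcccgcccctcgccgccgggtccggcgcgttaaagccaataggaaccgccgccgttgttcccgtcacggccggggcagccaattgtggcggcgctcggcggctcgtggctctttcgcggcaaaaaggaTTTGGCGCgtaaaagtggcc
ZNF367: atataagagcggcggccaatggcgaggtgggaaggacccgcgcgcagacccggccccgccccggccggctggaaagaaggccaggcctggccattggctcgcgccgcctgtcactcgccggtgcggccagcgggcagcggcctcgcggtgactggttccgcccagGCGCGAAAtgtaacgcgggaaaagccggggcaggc
CXCL8: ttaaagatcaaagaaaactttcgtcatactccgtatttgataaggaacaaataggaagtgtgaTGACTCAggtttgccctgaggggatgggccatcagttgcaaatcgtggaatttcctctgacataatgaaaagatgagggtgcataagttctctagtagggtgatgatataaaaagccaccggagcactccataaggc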

How the data were processed

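Signals came from Affymetrix-type expression arrays, 3 per group, with MAS5 named in the submitters' processing notes (version: not given in the sources used here). Deposited values are linear intensities that the authors had already scaled, with a trimmed mean near a common level in every array. Of 54675 probe sets, 62 are controls, 41091 carry 1 gene symbol, 1801 several and 11721 none, and those with several or none were left out. No probe set named for HNF4A alone was used, so its level is not reported. Values were taken as log2(signal + 1.43), the pseudocount being 0.1 of the median signal of 14.3. Probe sets above the array's median in at least 3 of 6 arrays were kept (23287), and the brightest stood for each of 12483 genes; 25.5% of these have a mean under 50 even in the brighter group. limma 3.58.1 (R 4.3.3) compared knockdown1 with control on 6 arrays, with a variance trend and Benjamini-Hochberg adjustment over all tested genes at 0.05. Knockdown1 and knockdown2 were compared in a fit of all 9 arrays. The fit was tested on simulated data. Tables and motif searches used Python 3.11.15 and pandas 2.3.3. Arrays give no read depth, and 3 arrays per group limit the precision.

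Named by rule were the 15 largest changes each way with no overlap between groups and a mean of at least 100 in the brighter group, the 4 largest called genes of each of 40 lists with 1 gene against the majority, and the 8 largest differences each way between knockdowns, among called genes with no overlap and a mean of at least 100 in the brighter knockdown, 184 genes in all. Other list members are named for their role, chosen after their values were seen. The lists hold 1178 genes, of which 1064 were annotated and 918 tested. The members and lists were chosen with earlier results of these data known. Alternatives were other scalings, pseudocounts, filters, probe set rules, variance models, a replicate block and leaving out each array.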

Additional observations from a re-analysis of the deposited data

Results flagged for a closer look

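Each gene here differed between knockdown1 and knockdown2 in the 9-array limma fit, given as the log2 difference of knockdown1 minus knockdown2. Both knockdowns were compared with the same control arrays. No cause of these differences was tested.

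Lower in knockdown1 were ZNF367 (-3.94), RRM2 (-3.29), PRC1 (-3.17), ANKRD46 (-2.85), MCM5 (-2.82), FST (-2.82) and SLC16A10 (-2.81). FST, which encodes the activin antagonist follistatin, gave 201, 121.3 and 192.6 in knockdown1, 1339, 1146.3 and 1101.9 in knockdown2 and 1768.1, 1375.1 and 1409 in control. Higher in knockdown1 were CXCL8 (3.38) and KRTAP3-1 (3.08).

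A further set was called in opposite directions against control in the knockdowns. Higher in knockdown1 and lower in knockdown2 than in control were ANGPTL8 (4.74), IFIT1 (3.07), NAGK (2.60), LYRM2 (2.54), BMPR2 (2.51), INHBE (2.43), MBL2 (2.05) and GSTM3 (1.05). BMPR2, a receptor of bone morphogenetic proteins, gave 183.8, 228.1 and 231.6 in knockdown1, 103.8, 94.6 and 83.2 in control and 30.6, 34.1 and 46.1 in knockdown2. The reverse held for CCNE2 (-3.35), CDK6 (-2.37), CYCS (-1.60), SLC2A3 (-1.34) and HPRT1 (-1.18). Against control, further bright probe sets of SLC2A3 were at -0.25 and -0.17 in knockdown1 and did not pass the threshold. Of the further probe sets of LYRM2, that at 0.66 passed, and those at 0.30 and 0.03 did not. A dim further probe set of GSTM3, at 0.13, did not pass either. Over all tested genes 340 were called in opposite directions, 209 of them higher in knockdown1.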

How the results depend on the processing

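Scaling each array to a common median left 1678 genes called higher in knockdown1 than in control against 2925, and 1389 higher than in knockdown2 against 2854. Centring on the tested genes gave 2336 higher and 2435 lower than in knockdown2. In all other alternatives run, the counts of called genes over all tested genes stayed within 1.5 times their value in both comparisons. Leaving out 1 array at a time gave 4686 to 5238 called genes against control and 4224 to 4432 between knockdowns. Of 179 genes named by the rule against control, 161 kept direction and call in every alternative run, as did 34 of 42 other called genes named for their role. Between knockdowns this held for 16 of 16 genes named by the rule, and other genes were not run. With the mean of their probe sets PECAM1 was at -0.34 (limma adjusted p = 0.266) and EGFR at -0.022 (adjusted p = 0.910), both of opposite sign. Deviations from group means correlated at -0.02, 0.13 and 0.03 between knockdown1 and control arrays of the same replicate number. Between different numbers the range was -0.12 to 0.08. With 3 arrays per group such values cannot exclude a pairing of arrays. A replicate block gave 5372 called genes against control and 4995 between knockdowns. Fold sizes of dim genes depend on the pseudocount, as given for ZNF367, CXCL8, TFPI2 and CDKN2B. With the pseudocount set at the median, ANKS4B was at -1.75, CYP4F2 at -1.42 and CLDN4 at -1.35. C8A was then at -1.24, CREB3L3 at -0.87 and FBP1 at -0.81, and each of these genes kept its call.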
